A study of Mus musculus with 22 samples.

Results

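The 9 genes described here encode secreted ligands of the TGF-beta superfamily: the TGF-betas Tgfb1, Tgfb2 and Tgfb3, the bone morphogenetic proteins Bmp2, Bmp4, Bmp5 and Bmp7, and Inhba and Inhbb, whose products form the activins. They were chosen by gene symbol, and all 9 were found among the 48709 Ensembl genes of each count table. All 9 also passed the filter on low counts in both experiments.

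RNA was sequenced from E13.5 mouse heart ventricles in 2 experiments with 3 libraries per genotype, 18 libraries in all. All embryos carried Nkx2.5-Cre, which recombines in cardiac precursor cells, on a C57/Bl6 background, so that cells of other origin in the ventricle keep their alleles. Experiment 1 compared LIN9 wt with LIN9 KO ventricles, both with wild-type Sav1. Experiment 2 crossed both LIN9 genotypes with Sav1 wt and Sav1 KO, which gave controls, each single knockout and the double knockout. LIN9 KO is Nkx2.5-Cre; Lin9 fl/fl with a floxed exon 7, and Sav1 KO is Nkx2.5-Cre; Sav1 fl/fl with a floxed exon 3. The genotype called LIN9 wt is named wild-type in the sample labels and Lin9 fl/+ in the study's text. LIN9 is a subunit of the MuvB complex, which together with B-MYB activates cell cycle genes, and SAV1 is a scaffold protein of the Hippo pathway, which restrains YAP. The comparisons ask how the ligand genes respond to the loss of each protein and of both. Total counts lay between 9485599 and 9615274 per library in experiment 1 and between 2770741 and 2999877 in experiment 2. A single count therefore stood for 0.103 to 0.108 CPM (counts scaled to a common library size after TMM normalization) in the first and for 0.328 to 0.373 CPM in the second. The tables of the 2 experiments were normalized separately, so tests were made only within each, and levels set side by side across them are a description. No source states that replicates came from separate embryos, and a figure legend of the study counts 2 biological replicates for LIN9 KO against LIN9 wt, each made in triplicate. The 3 libraries of a group may thus be repeats of a single biological replicate. The SDs, standard errors and p-values measure only the spread between these libraries, which may be technical. LIN9 KO replicate 3 of experiment 2 stood apart from its group, with a chi-square per degree of freedom over genes of 19.5 and 13.8 against the other libraries, which gave 5.81 between them. Without it, Tgfb3, Bmp4, Bmp5, Bmp7 and Inhbb were called in that comparison, as they were with it. Control replicate 1 of experiment 2 also stood apart from its group, at lower values (4.54 and 4.74, against 1.2 between the other controls). Without control replicate 1, the calls of Inhbb against controls were lost. The LIN9 KO libraries of experiment 1 lay farther from each other (15 to 24.1) than their controls (5.29 to 9.48).

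Ligands of this superfamily are secreted as dimers and bind pairs of serine/threonine kinase receptors, type II and type I. TGF-betas and activins signal mainly through SMAD2 and SMAD3, and BMPs through SMAD1, SMAD5 and SMAD9, each together with SMAD4, while SMAD6 and SMAD7 inhibit the pathway. In the embryonic heart, BMP2 from the atrioventricular canal and TGF-beta2 act in the formation of the endocardial cushions, BMP4 acts in the outflow tract, and BMP5 and BMP7 are made by the myocardium.

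The targeted genes were examined first. Lin9 stood at 29.8, 21.4 and 25.6 CPM in LIN9 wt and at 21.4, 21.3 and 19.2 CPM in LIN9 KO ventricles of experiment 1. In experiment 2, Lin9 measured 29.2, 28.1 and 23.2 CPM in controls, 13.2, 15.4 and 17.9 CPM in LIN9 KO, 19.2, 31.4 and 25.6 CPM in Sav1 KO and 23.5, 26.1 and 18.5 CPM in double knockout ventricles. LIN9 KO libraries lay below their LIN9 wt counterparts in both experiments with wild-type Sav1, by a margin smaller than the rounding of the values in experiment 1, and double knockout and Sav1 KO libraries overlapped. The log2 fold change of Lin9 was -0.31 (SE 0.14, adjusted p = 0.13) in experiment 1, -0.80 (SE 0.19, adjusted p = 0.0027) in experiment 2 with wild-type Sav1 and -0.16 (SE 0.18, adjusted p = 0.586) in the Sav1 KO background. Sav1 measured 54.5, 56.2 and 61.9 CPM in controls, 51.9, 49.9 and 47.4 CPM in LIN9 KO, 43.1, 36.1 and 43.0 CPM in Sav1 KO and 44.0, 40.5 and 42.3 CPM in double knockout ventricles. Every Sav1 KO library was below every library with wild-type Sav1 of experiment 2, but the change in the LIN9 wt background (log2 fold change -0.50, SE 0.12) did not pass the threshold over all genes (adjusted p = 0.318). Counts of a whole gene include the exons outside the floxed part, and RNA of cells without Cre, so these levels are a weak check of the labels, and for Lin9 in the double knockout they give no check at all. Between double knockout and LIN9 KO ventricles, the log2 fold change of Sav1 was -0.23 (SE 0.12, adjusted p = 0.464), which did not pass the threshold either. Between double knockout and control ventricles, which differ in LIN9 too, it was -0.44 (SE 0.12, adjusted p = 0.0087), and LIN9 KO libraries with wild-type Sav1 were already below controls (-0.21, SE 0.12, adjusted p = 0.225). In experiment 1, where Sav1 was not targeted, it measured 54.3, 51.5 and 55.3 CPM in LIN9 wt and 52.0, 49.9 and 43.0 CPM in LIN9 KO ventricles, which overlapped. Of the exonic bases of Sav1, 25.4% are shared with Atl1 on the opposite strand.

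Levels were compared between genes as CPM per kb of exonic length. In experiment 2 controls, Bmp7 was the most abundant ligand, at 43.4 ± 2.26 CPM per kb (SD, n = 3). Tgfb2 followed at 22.5 ± 1.30 and Bmp4 at 10.5 ± 0.972 CPM per kb. Each of these was higher in all 3 control libraries than the ligand after it. Below them came Bmp2 at 7.65 ± 0.545, Tgfb1 at 7.03 ± 1.03, Tgfb3 at 5.02 ± 0.507, Bmp5 at 4.17 ± 0.443, Inhba at 2.04 ± 0.152 and Inhbb at 1.54 ± 0.328 CPM per kb. In this order Bmp2 and Tgfb1, Tgfb3 and Bmp5, and Inhba and Inhbb overlapped between libraries, and the other neighbours did not. Bmp7 also had the highest mean in LIN9 wt ventricles of experiment 1, at 41.25 CPM per kb. In LIN9 KO ventricles of experiment 1, the mean of Bmp4 was 26.85 and that of Bmp7 was 24.96 CPM per kb. Bmp5 shares 46.7% of its exonic bases with the antisense gene Gm26903, which held between 0 and 5 counts in each library, and Tgfb3 shares 12.4% with genes on the opposite strand. Since the strand setting of the counting is not stated, reads in such shared bases cannot be assigned with certainty, and both levels are uncertain to that extent.

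**Figure D1:**
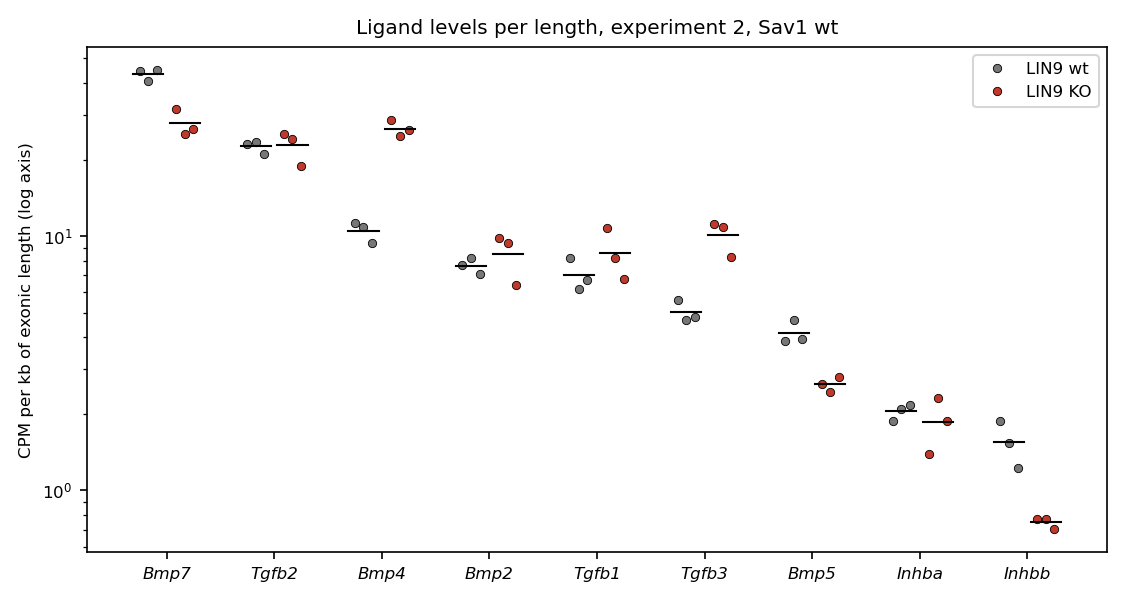
Level of each ligand in CPM per kb of exonic length (log axis) in experiment 2 with wild-type Sav1, ordered by the level in controls; points are the 3 libraries of LIN9 wt (grey) and LIN9 KO (red), and bars are means. Bmp7 leads in controls at 43.4 CPM per kb, and in LIN9 KO it stands at 27.8 CPM per kb beside 26.5 CPM per kb for Bmp4.

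In experiment 1, 5 of the 9 ligands passed the threshold between LIN9 KO and LIN9 wt ventricles, when 20.9% of all 19752 genes tested did. Tgfb3, Bmp2 and Bmp4 were higher (3 of 9, when 11.1% of all genes were called higher), and Bmp5 and Bmp7 were lower (2 of 9, when 9.78% were called lower). In experiment 2 with wild-type Sav1, 5 of 9 passed again, when 23.2% of 17675 genes did. Tgfb3 and Bmp4 were higher (2 of 9, when 12.8% of all genes were called higher), and Bmp5, Bmp7 and Inhbb were lower (3 of 9, when 10.5% were called lower). Tgfb3, Bmp4, Bmp5 and Bmp7 were thus called in the same direction in both experiments. The share of all genes called in the same direction in both was not counted. The median log2 fold change of the 9 ligands was 0.263 in experiment 1 and 0.017 in experiment 2, beside 0.0156 and 0.00857 over all genes tested. In these bulk samples, fewer cells of a type and less RNA per cell cannot be told apart.

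**Figure D2:**
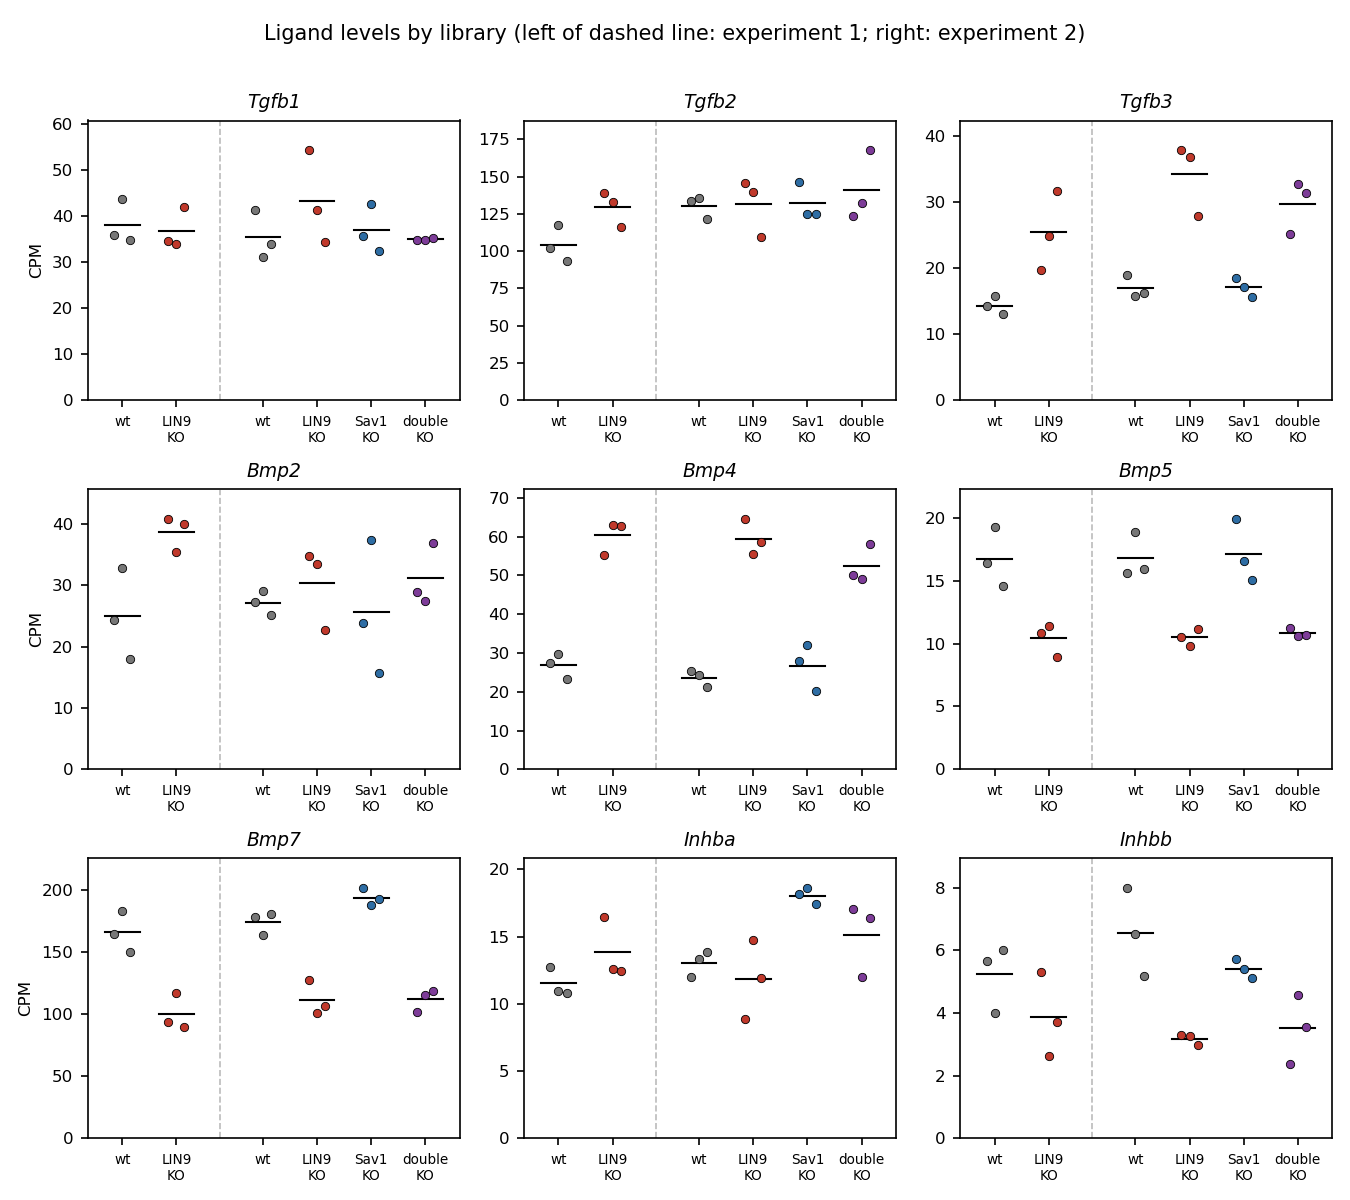
CPM of each ligand in every library of experiment 1 (left of the dashed line) and experiment 2 (right), by genotype; points are libraries and bars are group means, and each panel has its own axis from 0. Bmp4 and Tgfb3 are higher, and Bmp5 and Bmp7 lower, in each LIN9 KO library than in each library of the matched LIN9 wt group.

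Bmp4, a ligand of BMP receptors that acts in outflow tract and cushion development, changed most. It stood at 27.4, 29.8 and 23.4 CPM in LIN9 wt and at 55.2, 63.0 and 62.8 CPM in LIN9 KO ventricles of experiment 1. In experiment 2 it measured 25.3, 24.3 and 21.1 CPM in controls, 64.4, 55.4 and 58.5 CPM in LIN9 KO, 27.9, 32.1 and 20.1 CPM in Sav1 KO and 50.1, 49.0 and 58.0 CPM in double knockout ventricles. All libraries with LIN9 KO were above all libraries with LIN9 wt of the same experiment, whatever their Sav1 genotype. Bmp4 rose 2.25-fold in experiment 1 (log2 fold change 1.17, SE 0.12, adjusted p = 8.34e-06). It rose 2.52-fold in experiment 2 with wild-type Sav1 (log2 fold change 1.33, SE 0.15, adjusted p = 1.29e-07) and 1.96-fold in the Sav1 KO background (log2 fold change 0.97, SE 0.15, adjusted p = 1.66e-05).

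Tgfb3, a TGF-beta with roles in cushion and palate formation, also rose. In experiment 1 it measured 14.2, 15.8 and 13.0 CPM in LIN9 wt and 19.7, 24.9 and 31.7 CPM in LIN9 KO ventricles. Tgfb3 levels of experiment 2 were 18.9, 15.8 and 16.3 CPM in controls, 37.8, 36.7 and 28.0 CPM in LIN9 KO, 18.5, 17.2 and 15.7 CPM in Sav1 KO and 25.2, 32.8 and 31.3 CPM in double knockout ventricles. The groups with and without LIN9 did not overlap in either experiment, and LIN9 KO libraries of experiment 1 were spread more widely than their controls. The increase was 1.77-fold in experiment 1 (log2 fold change 0.83, SE 0.17, adjusted p = 0.0023), 2.01-fold in experiment 2 with wild-type Sav1 (log2 fold change 1.01, SE 0.17, adjusted p = 3.82e-05) and 1.73-fold in the Sav1 KO background (log2 fold change 0.79, SE 0.17, adjusted p = 0.000848).

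Bmp7, the most abundant ligand of control ventricles and one made by the myocardium, fell. It stood at 164.4, 183 and 149.9 CPM in LIN9 wt and at 94.0, 117 and 89.7 CPM in LIN9 KO ventricles of experiment 1. In experiment 2 it measured 178.5, 164.1 and 180.9 CPM in controls, 127.5, 101 and 106.3 CPM in LIN9 KO, 201.2, 188.1 and 192.4 CPM in Sav1 KO and 101.9, 115.5 and 118.8 CPM in double knockout ventricles. The highest LIN9 KO library was below the lowest library with LIN9 in each experiment. The log2 fold change was -0.72 (SE 0.12, adjusted p = 0.000562) in experiment 1, -0.64 (SE 0.10, adjusted p = 3.08e-05) in experiment 2 with wild-type Sav1 and -0.79 (SE 0.10, adjusted p = 1.72e-06) in the Sav1 KO background.

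Bmp5, the closest relative of Bmp7 among the 9, fell as well. It measured 16.4, 19.3 and 14.6 CPM in LIN9 wt and 10.8, 11.4 and 8.95 CPM in LIN9 KO ventricles of experiment 1. Bmp5 levels of experiment 2 were 15.6, 18.8 and 15.9 CPM in controls, 10.5, 9.84 and 11.2 CPM in LIN9 KO, 19.9, 16.6 and 15.0 CPM in Sav1 KO and 11.2, 10.6 and 10.7 CPM in double knockout ventricles. LIN9 KO and LIN9 wt libraries did not overlap, and the LIN9 KO values of experiment 2 rest on 30 to 33 counts per library. The log2 fold change was -0.69 (SE 0.16, adjusted p = 0.006) in experiment 1, -0.68 (SE 0.20, adjusted p = 0.0124) in experiment 2 with wild-type Sav1 and -0.66 (SE 0.20, adjusted p = 0.0141) in the Sav1 KO background. With DESeq2, the calls of experiment 2 were lost (adjusted p = 0.0624 with wild-type Sav1 and 0.0743 in Sav1 KO; over all alternatives 0.00976 to 0.0624 and 0.0118 to 0.096). They were also lost without control replicate 2 (adjusted p = 0.0536) and without Sav1 KO replicate 1 (adjusted p = 0.096), respectively.

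With all libraries, the remaining ligands were called in at most 1 of the 2 experiments. Bmp2, which acts in the atrioventricular canal, stood at 24.3, 32.9 and 18.1 CPM in LIN9 wt and at 40.8, 35.4 and 40.1 CPM in LIN9 KO ventricles of experiment 1. The groups did not overlap, and Bmp2 rose 1.55-fold (log2 fold change 0.63, SE 0.18, adjusted p = 0.025). The call was lost when LIN9 wt replicate 1 or 3 or LIN9 KO replicate 1 or 3 was left out (adjusted p = 0.0845, 0.065, 0.072 and 0.0701; range over all alternatives 0.00198 to 0.0845). In experiment 2, Bmp2 measured 27.3, 29.1 and 25.3 CPM in controls and 34.8, 33.5 and 22.7 CPM in LIN9 KO ventricles, which overlapped (log2 fold change 0.16, SE 0.25, adjusted p = 0.707). In the Sav1 KO background, Bmp2 was not called either (log2 fold change 0.28, SE 0.25, adjusted p = 0.488), but it was called higher when Sav1 KO replicate 2 was left out, which gave 5 ligands called there in place of 4. The difference between the experiments was not tested.

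Inhbb, a subunit of activin B and the least abundant ligand, stood at 7.98, 6.51 and 5.19 CPM in controls and at 3.29, 3.28 and 2.98 CPM in LIN9 KO ventricles of experiment 2. The groups did not overlap, at 15 to 24 against 8 to 10 counts per library, and the log2 fold change was -1.03 (SE 0.32, adjusted p = 0.02). The call was lost with DESeq2 (adjusted p = 0.099) and without control replicate 1 (adjusted p = 0.0877), in a range of 0.0164 to 0.099 over the alternatives. In experiment 1, with deeper libraries, Inhbb measured 5.67, 4.00 and 6.03 CPM in LIN9 wt and 5.31, 2.62 and 3.70 CPM in LIN9 KO ventricles, which overlapped (log2 fold change -0.43, SE 0.26, adjusted p = 0.279).

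Tgfb1, Tgfb2 and Inhba did not pass the threshold in any comparison. Tgfb2, the second most abundant ligand of LIN9 wt ventricles per length, stood at 102.2, 117.6 and 93.5 CPM in LIN9 wt and at 139.1, 132.8 and 116.2 CPM in LIN9 KO ventricles of experiment 1, with a log2 fold change of 0.31 (95% confidence interval 0.07 to 0.55, adjusted p = 0.0652) and a small overlap of the groups. It passed the threshold without the filter on low counts (adjusted p = 0.0414), with the replicate number as a block (adjusted p = 0.0142), without LIN9 wt replicate 2 (adjusted p = 0.043) and without LIN9 KO replicate 3 (adjusted p = 0.0139; range over all alternatives 0.0139 to 0.257). In experiment 2 the same interval was -0.23 to 0.26 with wild-type Sav1. For Tgfb1, the interval of the log2 fold change was -0.31 to 0.22 in experiment 1 and -0.025 to 0.61 in experiment 2. For Inhba, the subunit of activin A, it was -0.077 to 0.60 and -0.58 to 0.30. In the Sav1 KO background, Inhba and Inhbb did not pass the threshold (adjusted p = 0.392 and 0.183), where 23.4% of all genes passed. All 3 LIN9 KO libraries were below the LIN9 wt libraries for both. The share of all genes with groups so separated was not counted, so no conclusion is drawn from this separation.

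**Figure D3:**
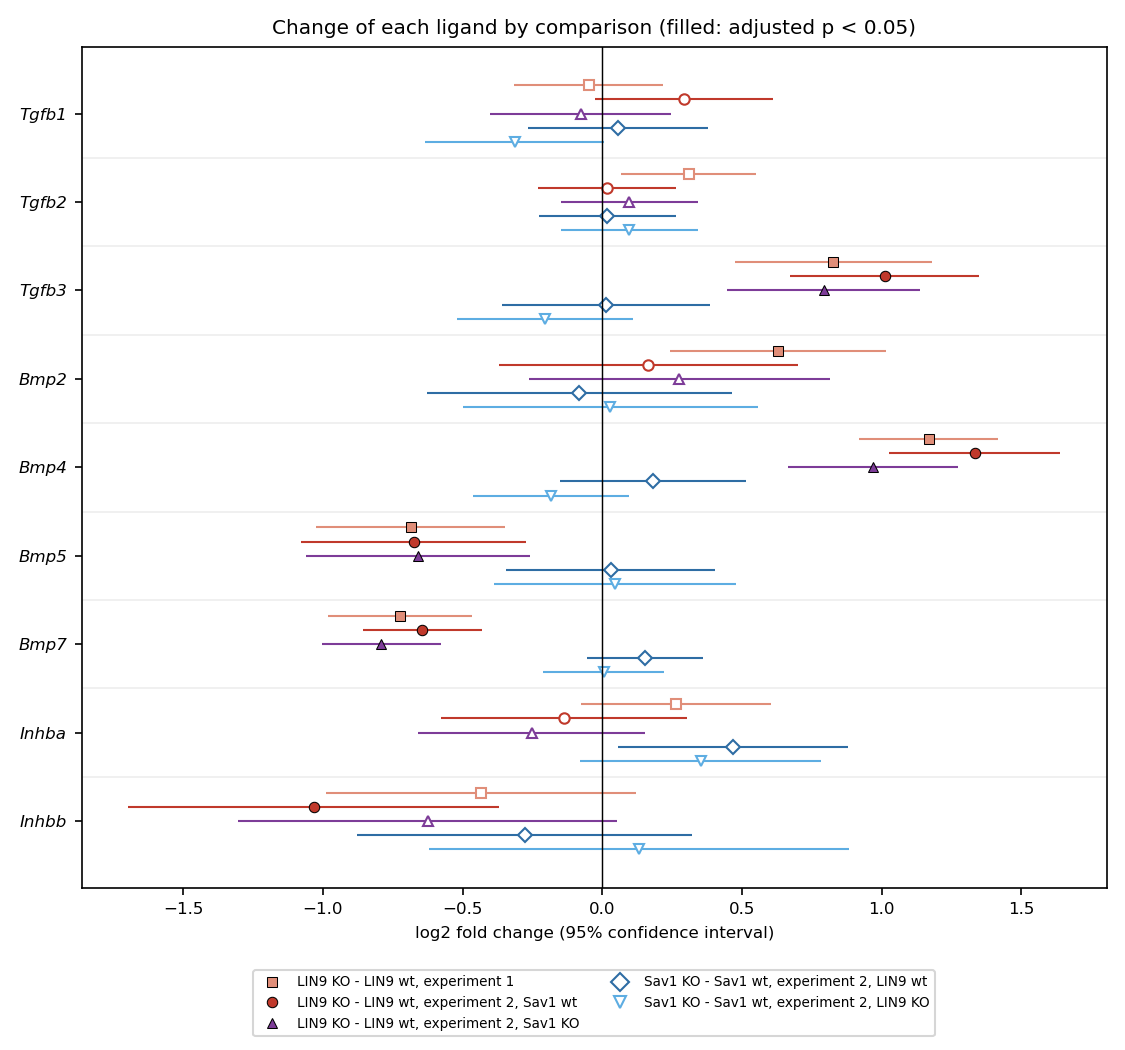
Log2 fold change of each ligand with its 95% confidence interval, for LIN9 KO minus LIN9 wt in experiment 1 and in both Sav1 backgrounds of experiment 2, and for Sav1 KO minus Sav1 wt in both LIN9 backgrounds; filled symbols have an adjusted p under 0.05 (edgeR). Bmp4 and Tgfb3 lie to the right of 0, and Bmp5 and Bmp7 to the left, in all 3 LIN9 comparisons, and no ligand is filled in the Sav1 comparisons.

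In the Sav1 KO background, 4 of 9 ligands passed between LIN9 KO and LIN9 wt, when 23.4% of all genes did. Tgfb3 and Bmp4 were higher (2 of 9, when 11.8% of all genes were called higher) and Bmp5 and Bmp7 lower (2 of 9, when 11.6% were called lower). Between double knockout and control ventricles, 5 of 9 passed, when 20.6% of all genes did. Tgfb3 and Bmp4 were higher (2 of 9, when 10.7% of all genes were called higher), and Bmp5, Bmp7 and Inhbb were lower (3 of 9, when 9.96% were called lower). This comparison shares its controls with that of LIN9 KO with wild-type Sav1. Log2 fold changes of the double knockout were 1.15 (SE 0.15) for Bmp4, 0.80 (SE 0.17) for Tgfb3, -0.64 (SE 0.10) for Bmp7, -0.63 (SE 0.20) for Bmp5 and -0.90 (SE 0.32) for Inhbb, with edgeR adjusted p-values of 2.37e-06, 0.000871, 4.47e-05, 0.0221 and 0.0444. The calls of Bmp5 and Inhbb were lost with DESeq2 (adjusted p = 0.102 and 0.177). The Bmp5 call was also lost without control replicate 2 or double KO replicate 2 (adjusted p = 0.0893 and 0.0543; range over all alternatives 0.0182 to 0.102). For Inhbb, 7 of 13 alternatives ended the call (adjusted p over all 13 from 0.0344 to 0.185), among them those without control replicate 1 or 2 (0.185 and 0.0788) and without double KO replicate 1 or 3 (0.145 and 0.0791).

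Loss of Sav1 moved no ligand past the threshold. With LIN9 wt, 0 of 9 ligands were called by edgeR, when 0.017% of all genes were (3 genes, and 0 to 31 over the alternatives), and 1 of 9 had an unadjusted p under 0.05, as did 693 of all genes. With LIN9 KO, 0 of 9 were called, when 0.0113% of all genes were, and none had an unadjusted p under 0.05, as 2093 of all genes did. This share, of 2 genes, is not stable: 378 genes were called without LIN9 KO replicate 3, which stood apart from its group, and 309 without the filter on low counts. DESeq2 called 0 of 9 ligands in both. The ligand with a low unadjusted p was Inhba, at 11.97, 13.4 and 13.8 CPM in controls and 18.2, 18.6 and 17.4 CPM in Sav1 KO ventricles. All 3 Sav1 KO libraries were above all 3 controls, but the change failed the correction over all genes (log2 fold change 0.47, SE 0.20, adjusted p = 0.999). Sav1 KO libraries were also above the controls for Bmp7 (log2 fold change 0.15, 95% confidence interval -0.056 to 0.36, adjusted p = 0.999). The share of all genes with groups apart in this comparison was not counted. No conclusion is therefore drawn from the separation of Inhba and Bmp7. The test of whether the LIN9 effect differed between the Sav1 backgrounds called 0 of 9 ligands, when 0% of all genes were called by edgeR and 1156 had an unadjusted p under 0.05, and DESeq2 also called 0. Without LIN9 KO replicate 3, this test called 64 genes, and without the filter on low counts 17. No ligand was called in any of these alternatives. For Bmp4, this difference was -0.36 on the log2 scale (95% confidence interval -0.80 to 0.070, adjusted p = 0.81), and for Bmp7 it was -0.15 (-0.45 to 0.15, adjusted p = 0.907).

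Promoters of 6 of the 9 ligands were matched in RefSeq (GRCm38.p6), from 250 bases before to 50 bases after the start. These are Tgfb1, Tgfb2, Bmp4, Bmp5, Inhba and Inhbb, and Tgfb3, Bmp2 and Bmp7 were not matched. They were searched on both strands for the letters TTTGAA of the cell cycle homology region, at which MuvB complexes bind, for its variant form TTCGAA, and for the letters GGAATG of TEAD proteins, through which YAP acts. Of all 32851 promoters, 17.9% held the first motif, 1.56% its variant and 14.7% the TEAD motif. The first motif was found in reverse orientation, as TTCAAA, in Bmp5, from 50 bases before the start, and in Tgfb1, from 29 bases before the start. No other letters searched were in the 6 windows, which says only that they are not in these 300 bases. A match is a description of letters and not a bound site. The promoter of Bmp4 (chr14:46390620-46390919, minus strand), which rose in LIN9 KO, is shown beside those of Bmp5 (chr9:75775115-75775414, plus strand), which fell, and Tgfb1 (chr7:25686752-25687051, plus strand), which passed no threshold, each 5′ to 3′ with the matched letters in capitals.
Bmp4: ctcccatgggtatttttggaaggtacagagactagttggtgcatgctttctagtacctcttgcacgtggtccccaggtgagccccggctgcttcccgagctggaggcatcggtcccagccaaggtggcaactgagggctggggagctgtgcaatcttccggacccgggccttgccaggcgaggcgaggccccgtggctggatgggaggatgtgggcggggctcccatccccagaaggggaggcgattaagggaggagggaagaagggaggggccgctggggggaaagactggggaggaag
Bmp5: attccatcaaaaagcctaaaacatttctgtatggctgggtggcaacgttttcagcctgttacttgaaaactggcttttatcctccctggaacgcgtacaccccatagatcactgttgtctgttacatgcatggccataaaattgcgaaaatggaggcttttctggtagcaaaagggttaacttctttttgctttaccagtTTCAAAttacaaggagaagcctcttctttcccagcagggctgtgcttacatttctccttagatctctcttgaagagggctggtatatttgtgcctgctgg
Tgfb1: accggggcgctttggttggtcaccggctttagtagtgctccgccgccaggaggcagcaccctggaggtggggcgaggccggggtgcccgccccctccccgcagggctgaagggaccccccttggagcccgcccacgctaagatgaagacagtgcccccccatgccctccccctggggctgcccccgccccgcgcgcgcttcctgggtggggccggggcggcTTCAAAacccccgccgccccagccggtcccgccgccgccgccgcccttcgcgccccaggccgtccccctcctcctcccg
The Bmp5 promoter has 43.3% G and C, against 64.0% for Bmp4 and 77.0% for Tgfb1.

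Other genes of the pathway were examined in 7 lists with 94 genes. For these lists and the cell type markers, values of experiment 2 are those of LIN9 KO against controls, both with wild-type Sav1, unless the Sav1 KO background is named. Of all genes tested, 11.1% were called higher and 9.78% lower in experiment 1, and 12.8% higher and 10.5% lower in experiment 2. Of 20 other ligands tested in experiment 1, 4 were higher and 0 lower in LIN9 KO, and of 15 tested in experiment 2 with wild-type Sav1, 5 were higher and 0 lower. The list medians were 0.501 and 0.9 on the log2 scale. The median of experiment 2 is the value of Bmp3, which was not called (SE 0.63, adjusted p = 0.355) and is poorly measured. That median also counts Gdf7, taken up below, and Gdf2, at 0.114 CPM per kb in controls and 0.22 CPM per kb in LIN9 KO. Both passed the filter on low counts through their LIN9 KO libraries, so no conclusion is drawn from this median. Bmp6, a ligand close to Bmp5 and Bmp7, stood at 16.3, 18.6 and 17.1 CPM in LIN9 wt and at 53.1, 51.4 and 68.6 CPM in LIN9 KO ventricles of experiment 1. In experiment 2 it measured 25.6, 20.9 and 20.4 CPM in controls and 70.7, 74.8 and 66.0 CPM in LIN9 KO. Bmp6 therefore rose in both experiments (log2 fold changes 1.74, SE 0.13, and 1.66, SE 0.15, adjusted p = 8.27e-07 and 5.66e-09) where Bmp5 and Bmp7 fell. Gdf6, a growth and differentiation factor of the BMP branch, rose with log2 fold changes of 1.74 (SE 0.15) and 1.70 (SE 0.19). Gdf15, a stress-responsive member, and Gdf7 were called higher in both experiments from low levels. Gdf15 stood at 1.85, 1.58 and 1.04 CPM in LIN9 wt and 13.1, 14.3 and 14.7 CPM in LIN9 KO ventricles of experiment 1. Gdf7 stood at 0.515, 0.843 and 0.727 CPM against 5.10, 7.03 and 8.23 CPM there, and its controls in experiment 2 held 0 or 1 count, so that no fold is given. In experiment 2, Gdf7 passed the filter on low counts only through its LIN9 KO libraries. The 5 higher calls of experiment 2 include it, and no conclusion is drawn from its call in that experiment. Bmp10, a ligand of trabecular myocardium named after its values were seen, had a mean of 171 ± 6.29 CPM in controls and 334.1 ± 70.4 CPM in LIN9 KO ventricles of experiment 2 (SD, n = 3 each), and its log2 fold change there was 0.97 (edgeR adjusted p = 3.34e-05). In experiment 1 its means were 185.1 ± 38.2 and 238.7 ± 67.8 CPM, and the change of 0.37 did not pass the threshold (edgeR adjusted p = 0.281).

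Among receptors and coreceptors, 4 of 17 tested were higher and 2 lower in experiment 1, and 5 of 16 were higher and 2 lower in experiment 2 (medians 0.15 and 0.256). The lower calls, 2 of 17 and 2 of 16, are near the 9.78% and 10.5% of all genes called lower, and 11.1% and 12.8% of all genes were called higher. Tgfbr3, the coreceptor betaglycan, which presents TGF-beta2 and binds inhibin, fell in both (log2 fold changes -1.06, SE 0.11, and -0.73, SE 0.13). It measured 69.9, 70.8 and 64.1 CPM in LIN9 wt and 28.0, 35.2 and 35.3 CPM in LIN9 KO ventricles of experiment 1, and 74.1, 63.4 and 69.9 against 47.0, 44.0 and 33.9 CPM in experiment 2. The groups were apart in both. Rgma, a BMP coreceptor, rose (1.27, SE 0.19, and 1.31, SE 0.27), as did Eng, the endothelial coreceptor endoglin (0.47, SE 0.11, and 0.54, SE 0.12), and the type I receptor gene Acvr1 (0.36, SE 0.11, and 0.34, SE 0.11). The 4 higher calls of experiment 1 include Tdgf1, at 0 counts in the 3 LIN9 wt libraries and 2 to 5 counts in LIN9 KO, which allows no fold. Tdgf1 passed the filter on low counts only through its LIN9 KO libraries. It could thus be tested only because it was higher there, and no conclusion is drawn from its call. Tdgf1 was named after its values were seen, and the list median is the same wherever its fold lies above that median.

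Of the 8 SMAD genes, 5 were higher and 0 lower in each experiment (medians 0.368 and 0.476). The largest changes were in the inhibitory Smad7, at 51.6, 46.7 and 42.9 CPM in LIN9 wt and 89.4, 102.3 and 136.3 CPM in LIN9 KO ventricles of experiment 1. Its log2 fold change was 1.22 (SE 0.14) in experiment 1 and 1.45 (SE 0.13) in experiment 2. The inhibitory Smad6 rose by a log2 fold change of 0.84 (SE 0.11) and 0.85 (SE 0.11), the BMP mediator Smad9 by 0.92 (SE 0.16) and 0.86 (SE 0.18), and the common mediator Smad4 by 0.42 (SE 0.12) and 0.49 (SE 0.11).

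Of the extracellular antagonists, which bind ligands and keep them from their receptors, 3 of 13 tested were higher in experiment 1 and 4 of 12 in experiment 2, and 0 were lower (medians 0.647 and 0.458), when 11.1% and 12.8% of all genes were called higher. Sost stood at 4.12, 5.38 and 4.78 CPM in LIN9 wt and 49.6, 68.6 and 56.2 CPM in LIN9 KO ventricles of experiment 1, and at 9.64, 7.88 and 5.19 against 88.7, 56.8 and 43.6 CPM in experiment 2. Sost encodes sclerostin, which is best known as an inhibitor of Wnt signalling, and its log2 fold changes were 3.61 (SE 0.16) and 3.05 (SE 0.26). Bmper, a BMP-binding protein of endothelial cells, rose by 1.20 (SE 0.16) and 0.98 (SE 0.17) on the log2 scale, and Fstl3, which binds activins, by 0.72 (SE 0.17) and 0.86 (SE 0.24).

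TGF-betas are stored in the matrix in a latent form. Of 17 genes of latency and processing, 10 were higher in experiment 1 and 11 in experiment 2, and 0 were lower (medians 0.513 and 0.647). Thbs1, which can activate latent TGF-beta, had log2 fold changes of 1.30 (SE 0.23) and 0.87 (SE 0.16). Itgav, the alpha subunit of the integrins that release it, had 0.89 (SE 0.11) and 1.17 (SE 0.11). The latent TGF-beta binding protein gene Ltbp4 rose by 0.84 (SE 0.10) and 0.85 (SE 0.15), and the microfibril gene Fbn1 by 1.00 (SE 0.25) and 0.68 (SE 0.17).

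Of 9 genes known to respond to BMPs, 9 were called higher in experiment 1 and 5 in experiment 2 (medians 0.832 and 0.65), and Id4, Atoh8, Msx2 and Tbx2 did not pass the threshold in experiment 2. Id1 and Id3, classical BMP targets that encode inhibitors of basic helix-loop-helix factors, rose by 0.73 (SE 0.11) and 0.78 (SE 0.11) on the log2 scale in experiment 1 and by 0.71 (SE 0.17) and 0.66 (SE 0.11) in experiment 2. Id3 stood at 115.5, 135.1 and 128.4 CPM in LIN9 wt and at 220.5, 196.3 and 234.7 CPM in LIN9 KO ventricles of experiment 1. Msx1, a homeobox gene, rose by 1.01 (SE 0.18) and 1.30 (SE 0.35), and Smad6, given above, is also in this list. Of 7 response genes of TGF-beta and activin, 5 were higher in each experiment and 0 lower (medians 0.791 and 0.707), and Bambi and Fst passed the threshold in neither. The 5 include Smad7, which is also counted among the SMAD genes, and Fst is also in the list of antagonists. The lists are therefore not separate. The matrix gene Tgfbi rose by 0.98 (SE 0.17) and 0.87 (SE 0.18), and Skil, a SMAD repressor, by 0.79 (SE 0.10) and 0.71 (SE 0.11). Apart from that of other ligands in experiment 2, the medians compare with 0.0156 and 0.00857 over all genes tested. The pathway genes given with a fold change for both experiments had edgeR adjusted p-values under the threshold in both, except Bmp10. In the Sav1 KO background, 4 of these genes did not pass the threshold between LIN9 KO and LIN9 wt: Msx1 (log2 fold change 0.28, adjusted p = 0.642), Fstl3 (0.24, adjusted p = 0.552), Smad4 (0.25, adjusted p = 0.108) and Rgma (0.64, adjusted p = 0.0935). The test of a difference between the Sav1 backgrounds called 0 genes by edgeR, and 64 without LIN9 KO replicate 3, as given above.

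**Figure D4:**
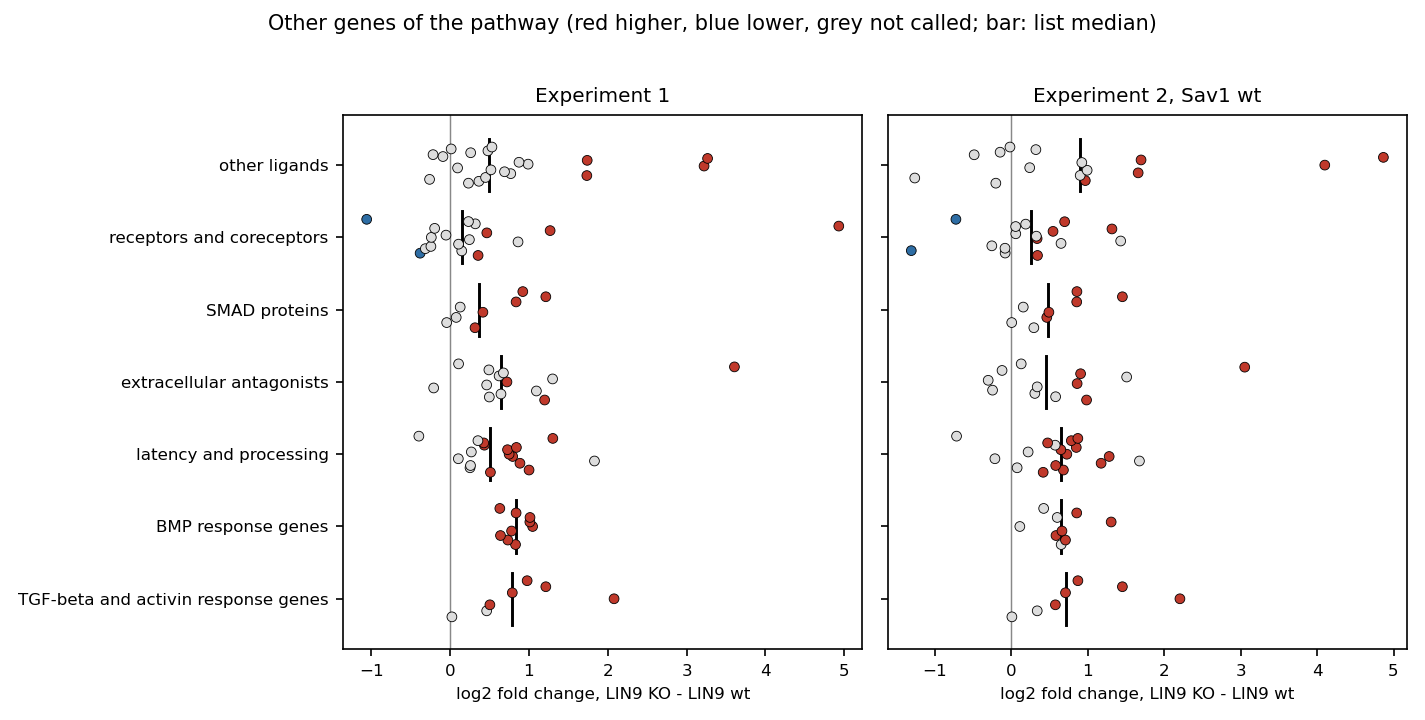
Log2 fold change of LIN9 KO minus LIN9 wt for the genes of 7 pathway lists in experiment 1 (left) and experiment 2 with wild-type Sav1 (right); each point is a gene (red called higher, blue called lower, grey not called), and black bars are list medians. The medians of both response lists lie between 0.65 and 0.832, and the fitted values of Tdgf1 (receptors, experiment 1) and Gdf7 (other ligands) rest on few counts in controls.

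Markers of cell types moved with the same genotype. All 6 ventricular cardiomyocyte markers tested were lower in LIN9 KO in both experiments, with medians of -1.076 and -1.007. Their summed level was 16500, 16560 and 17320 CPM in LIN9 wt and 7903, 8615 and 7589 CPM in LIN9 KO ventricles of experiment 1. In experiment 2 it was 17630, 16870 and 16960 CPM in controls, 9693, 8507 and 6913 CPM in LIN9 KO, 18670, 17400 and 18160 CPM in Sav1 KO and 8311, 8684 and 8676 CPM in double knockout ventricles. The labelled tissue was thus marked in every library, with Myl2 as the most abundant marker per length in each group (by group means, here and for the lists below), while Actc1 of this list was at 0 in every library, which cannot be read as absence of its expression. Bmp7 and Bmp5 fell together with these markers, whose part in their change was not tested.

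Epicardial markers were higher, 6 of 7 in each experiment (medians 1.005 and 1.138). They summed to 329.3, 311.3 and 305.9 CPM in LIN9 wt and 582.7, 560.2 and 654.4 CPM in LIN9 KO ventricles of experiment 1. In experiment 2 the sums were 280.9, 291.2 and 294.3 CPM in controls, 554.1, 537 and 593.5 CPM in LIN9 KO, 257.1, 281.6 and 299.2 CPM in Sav1 KO and 484, 531.8 and 509 CPM in double knockout ventricles. Krt19 was the most abundant of them per length in each group, and none was at 0. Markers of cushion mesenchyme and fibroblasts were also higher, 8 of 9 in each experiment (medians 1.032 and 0.822), and none was at 0. Per length, Col3a1 was the most abundant of them except in LIN9 KO of experiment 2 with wild-type Sav1, where Col1a1 was. They summed to 2640, 2404 and 2311 CPM in LIN9 wt and 4775, 5158 and 5095 CPM in LIN9 KO ventricles of experiment 1. In experiment 2 the sums were 3122, 3250 and 3030 CPM in controls, 6712, 6782 and 5363 CPM in LIN9 KO, 3152, 3527 and 2969 CPM in Sav1 KO and 5386, 6053 and 6920 CPM in double knockout ventricles. Bmp4, Tgfb3 and the pathway genes that rose moved together with these lists, and the part of the lists in their change was not tested.

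Macrophage markers were higher for 7 of 8 genes in experiment 1 and 5 of 8 in experiment 2. The most abundant per length was C1qa in controls and Sav1 KO ventricles of experiment 2 and C1qb in the other groups. Their sum was 89.8, 95.2 and 92.8 CPM in LIN9 wt against 159.7, 191.7 and 156.9 CPM in LIN9 KO ventricles of experiment 1, and 106.7, 107.6 and 110.3 against 207.7, 174.8 and 179.3 CPM in experiment 2. Sav1 KO libraries stood at 87.8, 91.2 and 107.1 CPM and double knockouts at 184.1, 224.3 and 235.5 CPM. Erythroid markers, led per length by Hba-a1 in each group, showed the largest list medians (2.706 and 2.786), with 6 of 6 genes tested higher in each experiment and Alas2 at 0 in every library, which likewise cannot be read as absence. They summed to 3749, 2636 and 3597 CPM in LIN9 wt and 26200, 13380 and 9899 CPM in LIN9 KO ventricles of experiment 1, where LIN9 KO replicate 1 stood apart from the other two. In experiment 2 the sums were 1870, 1523 and 1543 CPM in controls, 5951, 8698 and 11110 CPM in LIN9 KO, 1310, 1233 and 1591 CPM in Sav1 KO and 9111, 5658 and 3222 CPM in double knockouts. The part of both lists in the ligand changes was not tested. Leaving out LIN9 KO replicate 1 of experiment 1 kept Bmp4, Tgfb3, Bmp5 and Bmp7 past the threshold in that experiment.

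Of the other lists, 3 of 8 endothelial and endocardial markers were higher in each experiment, and Kdr was lower in experiment 2 (medians 0.231 and 0.194). Cdh5 was the most abundant of them per length except in LIN9 KO of experiment 1 and double knockout ventricles, where Tek was. Of 6 atrial cardiomyocyte markers, 1 was higher in experiment 1 and 2 in experiment 2 (medians 0.363 and 0.141), and the most abundant per length was Myl7 with LIN9 wt and Nppa with LIN9 KO. The atrial sum was 2995, 3865 and 3031 CPM in LIN9 wt and 4007, 4987 and 4475 CPM in LIN9 KO ventricles of experiment 1. In experiment 2 it was 3380, 2920 and 2921 CPM in controls and 4535, 3809 and 4092 CPM in LIN9 KO. All 3 markers of atrioventricular canal myocardium were called higher by edgeR in experiment 1 and 0 in experiment 2, where 1 had an unadjusted p under 0.05 (medians 0.633 and 0.298). Tbx2 is counted both in this list and among the BMP response genes, so these lists are not separate either. In the Sav1 KO background, Tbx2 was called higher (log2 fold change 0.66, adjusted p = 0.00636). The difference between the experiments was not tested. Per length, Rspo3 was the most abundant of the 3 markers in experiment 1 and in the Sav1 KO background, and Tbx2 was in experiment 2 with wild-type Sav1. The sum of the 3 was 50.9, 63.8 and 52.0 CPM in LIN9 wt and 92.4, 82.1 and 83.3 CPM in LIN9 KO ventricles of experiment 1, and 64.8, 66.5 and 64.3 against 89.1, 79.1 and 73.4 CPM in experiment 2. Of 4 smooth muscle markers, led per length by Acta2 in each group, 1 was higher in each experiment and Acta2 was lower in experiment 2 (medians 0.516 and 0.421).

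**Figure D5:**
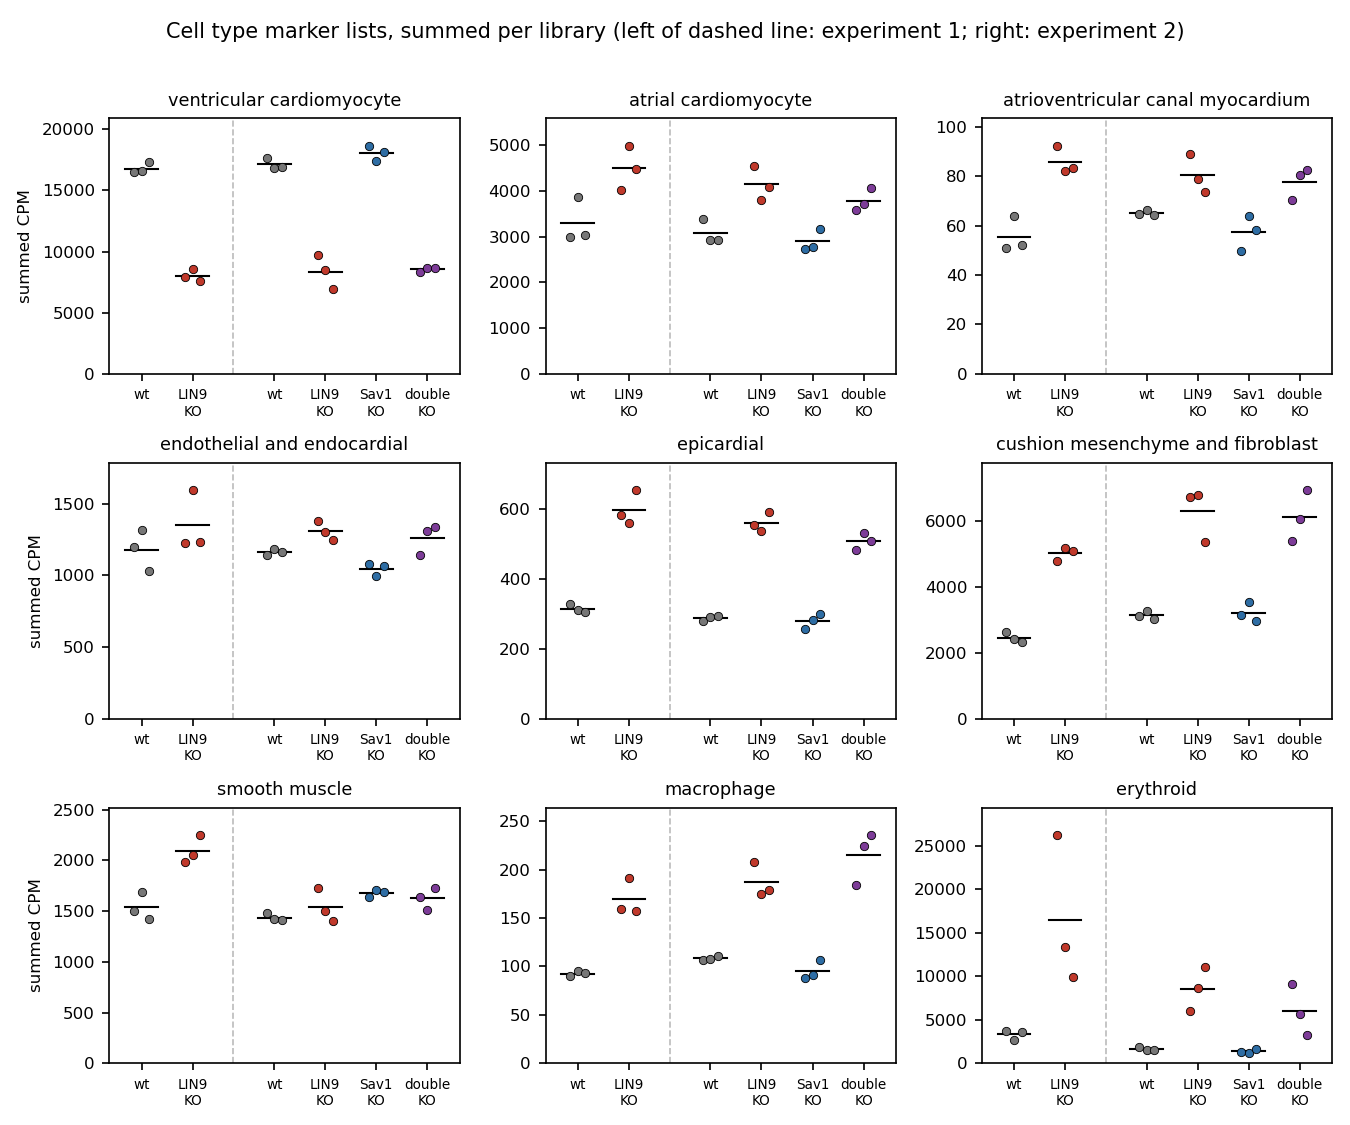
Summed CPM of 9 cell type marker lists in every library of experiment 1 (left of the dashed line) and experiment 2 (right); points are libraries, bars are group means, and each panel has its own axis from 0. The sum of ventricular cardiomyocyte markers is lower in each LIN9 KO library than in each library of the matched LIN9 wt group. The sums of epicardial, cushion mesenchyme, macrophage, erythroid, atrial and atrioventricular canal markers are higher in the same way.

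The genes most like 2 of the ligands were sought across the 12 libraries of experiment 2, among 12397 genes with a mean of at least 5 CPM. For Bmp7, the most abundant ligand of controls, these were Atp5a1 (Pearson r = 0.989), Cluh (r = 0.987) and C1qbp (r = 0.985), which encode mitochondrial proteins or, for Cluh, a protein that binds their mRNAs. For Bmp4, which changed most in both LIN9 KO comparisons, they were Spry1 (r = 0.992), a feedback inhibitor of receptor tyrosine kinase signalling, Slc39a8 (r = 0.985), a metal ion transporter, and Lhfpl2 (r = 0.983). These values describe 12 libraries of 4 genotypes, which fall into LIN9 wt and LIN9 KO libraries, so that many genes that differ between them have a high r.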

How the data were processed

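Poly(A) RNA of E13.5 ventricles was sequenced, and the authors deposited count tables of 48709 Ensembl genes, made with TopHat2 2.1.0 and Bowtie2 on mm10 and counted per gene after all samples were brought to the smallest number of mappable reads. Counting used the summarizeOverlaps function, and the strand setting and the treatment of overlapping genes are not given in the sources used here. The deposited tables of the authors' comparisons hold their edgeR log2 fold changes, log2 CPM, p-values and false discovery rates and were not used. Of the 22 samples of the series, 4 ChIP samples were not analysed here.

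Each table was fitted on its own with edgeR 4.0.16 in R 4.3.3 (TMM, robust quasi-likelihood test), keeping genes with a mean count above 1. Experiment 2 was a single fit of 12 libraries. P-values were adjusted over all genes tested (Benjamini-Hochberg), and a gene was called at an adjusted p under 0.05. Every adjusted p is edgeR's unless DESeq2 (1.42.0) is named. The fits were also run on simulated data, and no value given here comes from them. Standard errors and intervals come from the test's F statistic. CPM used TMM library sizes, and levels between genes were divided by exonic length in GENCODE M21. Depth sets the precision of low genes: Inhbb rests on 7 to 24 counts per library in experiment 2. Alternatives were DESeq2, total counts without TMM, other filters, no robust estimation, the replicate number as a block, only the libraries compared, and leaving out each replicate.

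The text names all 9 ligands, Lin9 and Sav1, and from each of 7 pathway lists up to 4 genes called in both experiments with the largest mean change. A gene that this rule picks is not reported here. Other genes were named after their values were seen. The members and lists were chosen with earlier results of these data known. No replicate pair within a group agreed within sampling noise (lowest chi-square per degree of freedom 1.2).

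Whether replicate numbers pair libraries was checked by the correlation of same-numbered deviations from group means, against 0.1. Over all genes tested, no pair of genotypes passed (controls and LIN9 KO of experiment 2, 0.0891 to 0.393). Over genes with a mean of at least 5 CPM, controls and LIN9 KO (0.257 to 0.637), controls and Sav1 KO (0.102 to 0.33), and LIN9 KO and Sav1 KO (0.116 to 0.358) of experiment 2 passed, and no pair with the double knockout did, nor did experiment 1 (0.0576 to 0.285). The pairing thus depends on the gene set, and the second set was taken up after calls of the blocked fit had been seen.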

Additional observations from a re-analysis of the deposited data

How the results depend on the processing

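Over 27 ligand log2 fold changes and 342 alternative values, 310 kept direction and side of the threshold, 20 lost a call, 4 gained one and 8 turned direction. Outside these 27, Bmp2 gained a call in the Sav1 KO background without Sav1 KO replicate 2. Bmp4, Tgfb3 and Bmp7 stayed past the threshold in all alternatives of the 4 comparisons of LIN9 KO or double knockout with their controls. Values that turned belong to ligands that were not called. For Tgfb1 in experiment 1, the log2 fold change was 0.0607 without LIN9 wt replicate 2, 0.0009 without LIN9 KO replicate 1 and 0.0062 without LIN9 KO replicate 2, in a range of -0.1563 to 0.0607. For Tgfb2 in experiment 2 with wild-type Sav1, it was -0.0147 with only the 6 libraries compared, -0.03 without control replicate 3, -0.0787 without LIN9 KO replicate 1 and -0.0613 without LIN9 KO replicate 2, with 0.1033 as the highest value without a replicate. For Inhba there, it was 0.0236 without LIN9 KO replicate 1, in a range of -0.3674 to 0.0236.

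With DESeq2, 3 ligands were called between LIN9 KO and controls of experiment 2 and 3 between double knockout and controls. Leaving out a replicate gave 3 to 5 in the latter, with 3 without control replicate 2. Genes called in experiment 1 numbered 2722 to 4223 when a replicate was left out, with 2722 without LIN9 wt replicate 3. Between Sav1 KO and controls, 22 genes were called without the filter on low counts, 1 without robust estimation, 31 with only the 6 libraries compared and 0 to 2 without a replicate (0 without control replicate 2 or 3 or any Sav1 KO replicate). Between double knockout and LIN9 KO, 11 genes were called by DESeq2, 309 without the filter, 0 with filterByExpr, 0 without robust estimation and 0 with only the 6 libraries compared. Without a replicate, this count was 0 to 378: 4, 0 and 378 without LIN9 KO replicate 1, 2 and 3, and 1, 15 and 0 without double KO replicate 1, 2 and 3. The test of the difference between Sav1 backgrounds called 17 genes without the filter and 0 to 64 without a replicate (64 without LIN9 KO replicate 3 and 2 without control replicate 1). The cause was not tested. Ligands called by these Sav1 and difference tests stayed at 0 in every alternative.

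With the replicate block, 84 genes were called between double knockout and LIN9 KO, in place of 2, although the numbers do not pair these 2 genotypes in either gene set. The block changed no ligand call in experiment 2. In experiment 1, where the numbers do not pair the libraries either, it called 5001 genes in place of 4131 and 6 ligands in place of 5, Tgfb2 being the addition, and 4 of 6 libraries correlated best with their own number (7 of 12 in experiment 2).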

Other observations

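The ratio of Bmp7 to Bmp4 in CPM was taken up after the values were seen and has no test. In experiment 1 it lay between 6.0 and 6.41 in the 3 LIN9 wt libraries and between 1.43 and 1.86 in LIN9 KO. In experiment 2 it lay between 6.75 and 8.57 in controls, between 5.86 and 9.56 in Sav1 KO, between 1.82 and 1.98 in LIN9 KO and between 2.03 and 2.36 in double knockout ventricles.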
